A study of Homo sapiens with 2 samples.

Results

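Oestrogen receptor α (ERα) peaks that crowd together were examined in T47D cells, an established ERα-positive human breast cancer line. The peaks were chosen by their positions alone: on chromosomes 1 to 22, peaks whose facing edges lay at most 10000 bp apart were chained into regions, and all peaks of regions with 5 or more were kept. This gave 876 peaks in 136 regions, out of 12355 peaks on these chromosomes and 12688 in the whole list. The series holds 1 library of chromatin recovered with an ERα antibody (H-20) and 1 input library. Before the harvest the cells of both libraries spent 48 h without steroids in their medium, followed by 45 min with 17β-estradiol at 10 nM. All values therefore describe the hormone-treated state, and no untreated library was analysed here. With 1 library of each kind, no value has a replicate error and no p-value is given. Since positions chose the peaks, the number, the spacing and the length of the regions are descriptions. Score and width are other readings of the same library, but they rise together and are not independent of each other. Width also enters the spacing through the peak edges.

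ERα is a nuclear receptor that binds DNA as a dimer once it holds oestrogen. The element it favours is an inverted repeat, and receptor sites lie mostly in distal enhancers, many of which the pioneer factors FOXA1 and GATA3 also bind in luminal breast cells. Several receptor sites in a row near a gene are often described as an enhancer cluster. In such a group the sites can differ greatly in occupancy.

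The promoters of 3 genes at loci where many peaks crowd are printed as examples. Genes at other such loci, some with more peaks, are not printed. All 3 printed stretches hold an arm of the element, which most promoters at named loci do not, so they do not stand for these loci. The 3 are RARA (a retinoic acid receptor), TOB1 (an antiproliferative protein) and XBP1 (a transcription factor of the unfolded protein response). The stretches are the 250 bases before the most upstream listed start of each gene, from RefSeq on GRCh38.p14, written along the gene. The peaks are on hg19, so no peak was placed on these letters. The capitals mark each arm of the oestrogen response element, GGTCA or its complement TGACC. The RARA stretch is at chr17:40308930-40309179 on the plus strand, the TOB1 stretch at chr17:50867979-50868228 on the minus strand and the XBP1 stretch at chr22:28800570-28800819 on the minus strand.
RARA: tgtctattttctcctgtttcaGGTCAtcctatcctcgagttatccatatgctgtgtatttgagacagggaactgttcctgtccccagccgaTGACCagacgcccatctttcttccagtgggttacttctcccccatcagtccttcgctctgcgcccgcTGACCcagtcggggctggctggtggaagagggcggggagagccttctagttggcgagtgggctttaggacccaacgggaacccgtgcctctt
TOB1: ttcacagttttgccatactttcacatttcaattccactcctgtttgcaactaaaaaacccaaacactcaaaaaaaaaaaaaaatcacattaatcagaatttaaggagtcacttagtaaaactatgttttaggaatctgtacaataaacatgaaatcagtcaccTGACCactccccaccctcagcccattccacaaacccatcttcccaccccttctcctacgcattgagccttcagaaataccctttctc
XBP1: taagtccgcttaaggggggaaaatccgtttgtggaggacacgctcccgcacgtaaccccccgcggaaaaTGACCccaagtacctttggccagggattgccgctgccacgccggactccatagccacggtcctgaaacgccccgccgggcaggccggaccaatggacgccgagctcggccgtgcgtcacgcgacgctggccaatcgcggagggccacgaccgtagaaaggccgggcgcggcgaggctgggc

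The RARA stretch holds 3 such arms, the TOB1 stretch 1 and the XBP1 stretch 1. Stretches before the other listed starts of RARA and TOB1 hold 0, and that before the other start of XBP1 holds 1. At the most upstream listed starts of genes not printed, HES1, RXRA and CBFA2T3 hold 0, while GSE1 holds 1 and THSD4 2. Among all 35116 listed promoters, 32.6% hold at least 1 arm in this window on either strand. Of the 49 genes used to name loci, some not mentioned below, 36 had promoters in the set compared. Among the 67 listed promoters of these 36 genes 24 hold an arm, or 35.8%. The remaining genes, GREB1 among them, had no promoter in this set. The full element GGTCANNNTGACC, whose ends are these arms, was found in 14 of all promoters and in 0 of the 67. A match describes letters, not a bound site, and the lack of one describes only this window.

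The deposited list gives each peak an hg19 position and the score of the authors' peak caller, whose scale is not stated. It serves here to order peaks and to split them into classes, nothing more. Its median over the list is 128, its lowest value is 50 and its highest 3230.05. A score of exactly 3100 was shared by 231 peaks of chromosomes 1 to 22. Peaks at 3100 or above are called strong here, and most of them are tied. The number of reads behind a peak is unknown.

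The 10000 bp limit fell within a continuous range of distances. The longest gaps inside a kept region were 9975 bp in 11q13.5, 9967 bp in 3q28 and 9954 bp in 3q13.12. The shortest gaps that ended one were 10033 bp in 3q22.1, 10037 bp in 21q22.2 and 10487 bp in 1p36.22. Likewise, 171 regions had 4 peaks and were left out, and 58 had 5. The regions of 4 had a median length of 11395 bp and a median top score of 1359, and 34 of them (19.9%) held a strong peak. The regions of 5 had a median length of 15474 bp and a median top score of 2479, and 21 of them (36.2%) held a strong peak. A top score is taken over more peaks in the regions of 5. The median score per region went the other way, 254.5 with 4 peaks and 219 with 5. Over all their peaks the median score was 186 and 233.

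Most regions were small. Besides the 58 with 5 peaks, 30 had 6 and 21 had 7, while 27 had 8 or more and accounted for 259 peaks. The maximum was 14. Together the regions spanned 2.80 Mb, or 0.0973% of the 2881 Mb of chromosomes 1 to 22. They held 7.09% of the peaks. The rest of the list fell into 1792 regions of 2 to 4 peaks (4323 peaks) and 7156 single peaks.

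Clustered peaks were unevenly shared among the chromosomes. Chromosomes 11 and 17 had 13 regions each and chromosome 16 had 10. These 3 carried 36 of the 136 regions and 27.7% of the clustered peaks, against 15.7% of all autosomal peaks. On chromosome 17, 92 of 646 peaks were clustered, or 14.2% (Wilson 95% interval 11.8 to 17.1%), and on chromosome 16, 72 of 520, or 13.8% (11.1 to 17.1%). Chromosome 1 had more peaks than either, 1169, yet only 45 were clustered, or 3.85% (2.89 to 5.11%). On chromosome 20, 11 of 411 were clustered, or 2.68% (1.5 to 4.73%), and on chromosome 12, 13 of 546, or 2.38% (1.40 to 4.03%). Chromosome 13 had 0 of 261, with a Wilson upper limit of 1.45%, while the limit of 3 counts that a count of 0 allows gives a share of up to 1.15%. The interval lay above the autosomal share on 7 chromosomes, below it on 8 and across it on 7. These intervals treat peaks as independent, which peaks of 1 region are not, and cover counting error only. The tally is therefore not a count of chromosomes that differ. Chaining by distance also depends on how densely a chromosome carries peaks, and density was not set beside the shares.

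**Figure D1:**
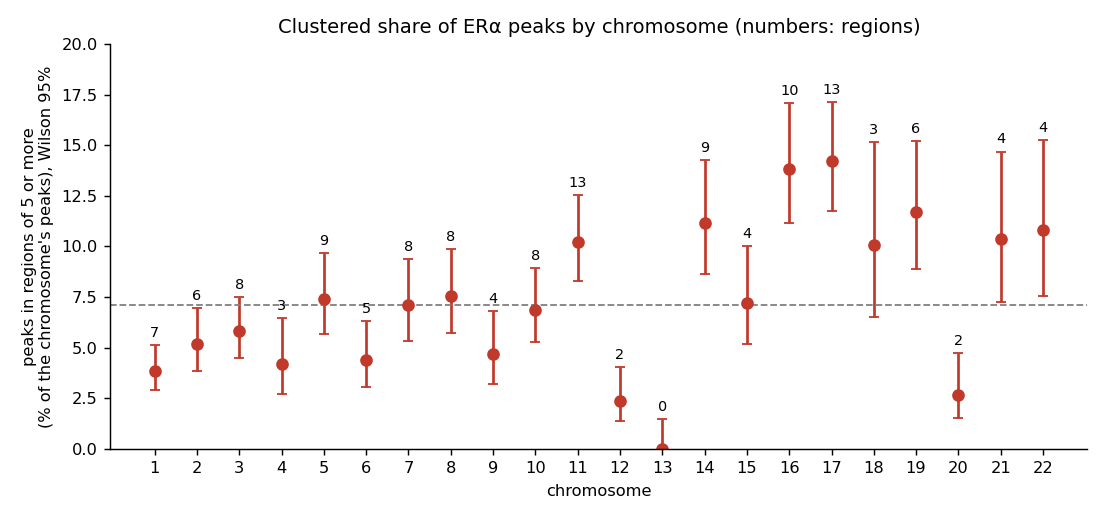
Share of each chromosome's ERα peaks that lie in regions of 5 or more peaks (y axis, percent), by chromosome (x axis). Points are shares, bars are Wilson 95% intervals, the dashed line is the share over chromosomes 1 to 22 (7.09%), and the number above each bar is the number of regions. Chromosomes 16 and 17 sit highest, and chromosome 13 is at 0.

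The regions fell in 105 cytogenetic bands, and 22 bands held more than 1. The band 17q21.2, which carries RARA and the type I keratin genes, held 6 regions with 45 peaks, 4 of them strong. The band 16q24.1, which carries GSE1, a coiled-coil protein of co-repressor complexes, held 4 regions with 37 peaks, 3 of them strong. The bands 16q12.2, 14q24.3 and 7q34 held 3 regions each, with 17, 15 and 15 peaks. In light-staining (G-negative) bands, which are gene-rich, lay 77 regions or 56.6% (Wilson 95% interval 48.2 to 64.7%), beside 56.6% of all autosomal peaks and 42.4% of the chromosome length. The lightest of the staining bands (gpos25) held 25 regions (18.4%), against 11.3% of the peaks and 7.25% of the length. The darkest bands (gpos100) held 4 regions (2.94%) and 8.73% of the peaks.

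Gene names below mark a locus and come from general knowledge of it, because no hg19 annotation was used. All 49 names were found in the RefSeq table of GRCh38. For 53 of 53 regions given a name, the gene's band there was the region's band on hg19. Names were chosen by band and locus, so this match was nearly given in advance. No distance from a region to a gene was measured. No peak was assigned to a gene, and no region is shown to act on one.

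The regions of 8 or more follow by locus. At GREB1 in 2p25.1, a classic oestrogen-induced gene, 11 peaks spanned 41905 bp at chr2:11638468-11680372. Their scores in order along the chromosome were 3100, 620.94, 147.86, 122.48, 581.69, 67.85, 953.21, 3100, 3203.45, 87.75 and 3100. These 4 strong peaks were the most in any region, and they stood at both ends and in a close pair 625 bp apart near the right end. The region at RARA in 17q21.2 held 10 peaks in 32773 bp, at chr17:38463247-38496019, with 1 strong peak and a median score of 148. At RXRA in 9q34.2, which encodes the partner of many nuclear receptors, 8 peaks in 22644 bp reached 1901 at most, with a median of 194.

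Far upstream of PGR, the progesterone receptor gene and a standard readout of oestrogen action, 2 regions lay 74824 bp apart in 11q22.1. The first, at chr11:101205268-101225929, held 8 peaks, 1 of them strong, with a median score of 289. The second, at chr11:101300754-101314949, held 6 peaks scoring 246.06, 3100, 3100, 51.50, 3100 and 643.86. Its median of 1872 was the highest of the 136 regions. The weakest of its peaks stood between strong ones.

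At HES1 in 3q29, a repressor downstream of Notch, 11 peaks spanned 45561 bp with 1 strong peak and a median of 178. At XBP1 in 22q12.1, 8 peaks spanned 22119 bp at chr22:29200639-29222757, with scores of 137.76, 3100, 654.10, 3100, 240.74, 2688.74, 1099.52 and 56.13. There the outermost peaks were the lowest and the 6 between them all scored above 240. The regions at CASZ1 (a zinc-finger factor) in 1p36.22, GRHL2 (an epithelial factor) in 8q22.3 and CXXC5 (a zinc-finger protein) in 5q31.2 held 9, 9 and 8 peaks with median scores of 567, 222 and 734. The region at CXXC5 had no strong peak, but all 8 scored above the list median. At CBFA2T3 (a co-repressor) in 16q24.3, 8 peaks included 1 of 3382 bp at 3100. The region at ZBTB40 in 1p36.12 also held 8, with a top score of only 359.

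The 16q24.1 band had the largest region, 14 peaks in 47176 bp at chr16:85309765-85356940. Its scores were 220.04, 66.52, 96.37, 3100, 78.61, 81.01, 117.86, 2710.13, 1343.28, 91.21, 303.26, 303.77, 3100 and 109.11. Of its 4 peaks above 1000, those at 2710.13 and 1343.28 were neighbours, and weaker peaks separated this pair from the strong peak on either side. In the same band a region of 9 peaks at chr16:85480318-85509736 was the most densely filled, with peaks covering 69.7% of its 29419 bp. Its widths were 627, 1415, 1493, 2172, 960, 3360, 5327, 2521 and 2620 bp, and 6 of its 8 gaps were under 1 kb. Its first 4 peaks scored 90.75 or less, and its last 4 scored 1778.99 or more. A further 9 peaks lay at chr16:85572877-85609256, with a median score of 159.

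At KRT19 and its neighbours KRT13 and KRT15, the epithelial keratins of 17q21.2, 13 peaks spanned 44044 bp, 1 strong and 1 at 2879. Nearby, at the hair keratin genes around KRT31, 5 peaks in 16264 bp scored 2206.50, 400.64, 3100, 1409.86 and 379.57, all above the list median. At SERPINA1 in 14q32.13, which encodes α1-antitrypsin, 10 peaks spanned 37704 bp. The region beside it, at SERPINA6 (corticosteroid-binding globulin), lay 34271 bp away and held 6 peaks with a median of 1834. At DLG5 (a membrane scaffold) in 10q22.3 lay the longest region, 52192 bp with 13 peaks. Most of those were weak: the median was 119, below that of the list, although 2 adjacent peaks reached 2960.07 and 3100. At THSD4 (a matrix protein) in 15q23, 13 peaks spanned 44250 bp with a median of 211.

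At TOB1 in 17q21.33, 10 peaks spanned 28403 bp and the scores 3100 and 2178 stood side by side. The regions at SBNO2 (a transcriptional co-regulator) and GNG7 (a G protein subunit), both in 19p13.3, held 10 and 9 peaks. The first was packed into 20990 bp with a median of 456, while the second spread over 33317 bp with a median of 137. At DSCAM (an adhesion molecule) in 21q22.2, 10 peaks reached 2143 with a median of 439. The densest of the large regions was at SYT8 (a synaptotagmin) in 11p15.5, with 9 peaks in 11606 bp and a median of 653. The remaining large regions had 8 peaks each and lay at FRMD8 in 11q13.1, PIM3 (a kinase) in 22q13.33, PGCKA1 in 4p14 and AQP4 (a water channel) in 18q11.2. Their top scores were 2463, 1499, 2970 and 2378.

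Smaller regions at known loci, named after their values were seen, differed in their scores. At NRIP1 in 21q21.1, an oestrogen-responsive co-repressor gene, 5 peaks in 19920 bp at chr21:16564443-16584362 scored 54.29, 775.65, 233.63, 3100 and 532.84. Its single strong peak stood inside the region, and its lowest peak came first.

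At IGF1R in 15q26.3, the receptor for insulin-like growth factor 1, 2 regions of 6 and 7 peaks lay 89671 bp apart, and their top scores were close, 1219 and 1280. Neither held a strong peak. At FOS in 14q24.3, a subunit of the AP-1 factor, 5 peaks in 12299 bp scored 210.31, 1408.60, 826.73, 852.74 and 51.28, with the outermost ones lowest. At SMAD7 in 18q21.1, an inhibitor of TGF-β signalling, the scores were 347.23, 1321.17, 251.72, 3100 and 664.19. At VMP1 in 17q23.1, an autophagy gene, 7 peaks spread over 23192 bp reached only 229.

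Clusters with several strong peaks were not confined to large regions. Besides GREB1, the second PGR region, XBP1 and the largest region at GSE1, 3 regions held 2 strong peaks, a tie for the fifth place that was kept whole. At BFSP2 in 3q22.1, the gene of a lens filament protein, 6 peaks in 15477 bp scored 3100, 1380.27, 3100, 55.68, 707.96 and 57.70. By IRX3, a homeobox gene of 16q12.2, 6 peaks in 10163 bp scored 56.57, 3100, 3100, 174.73, 927.12 and 529.08. At CLIC6 in 21q22.12, an intracellular chloride channel gene, 7 peaks in 16224 bp scored 3100, 155.02, 51.74, 3100, 2477.34, 111.88 and 60.16. In 10q26.13, at chr10:127310976-127323274, 5 peaks included neighbours at 3100 and 3092.83 and had the fifth highest median, 1071.

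**Figure D2:**
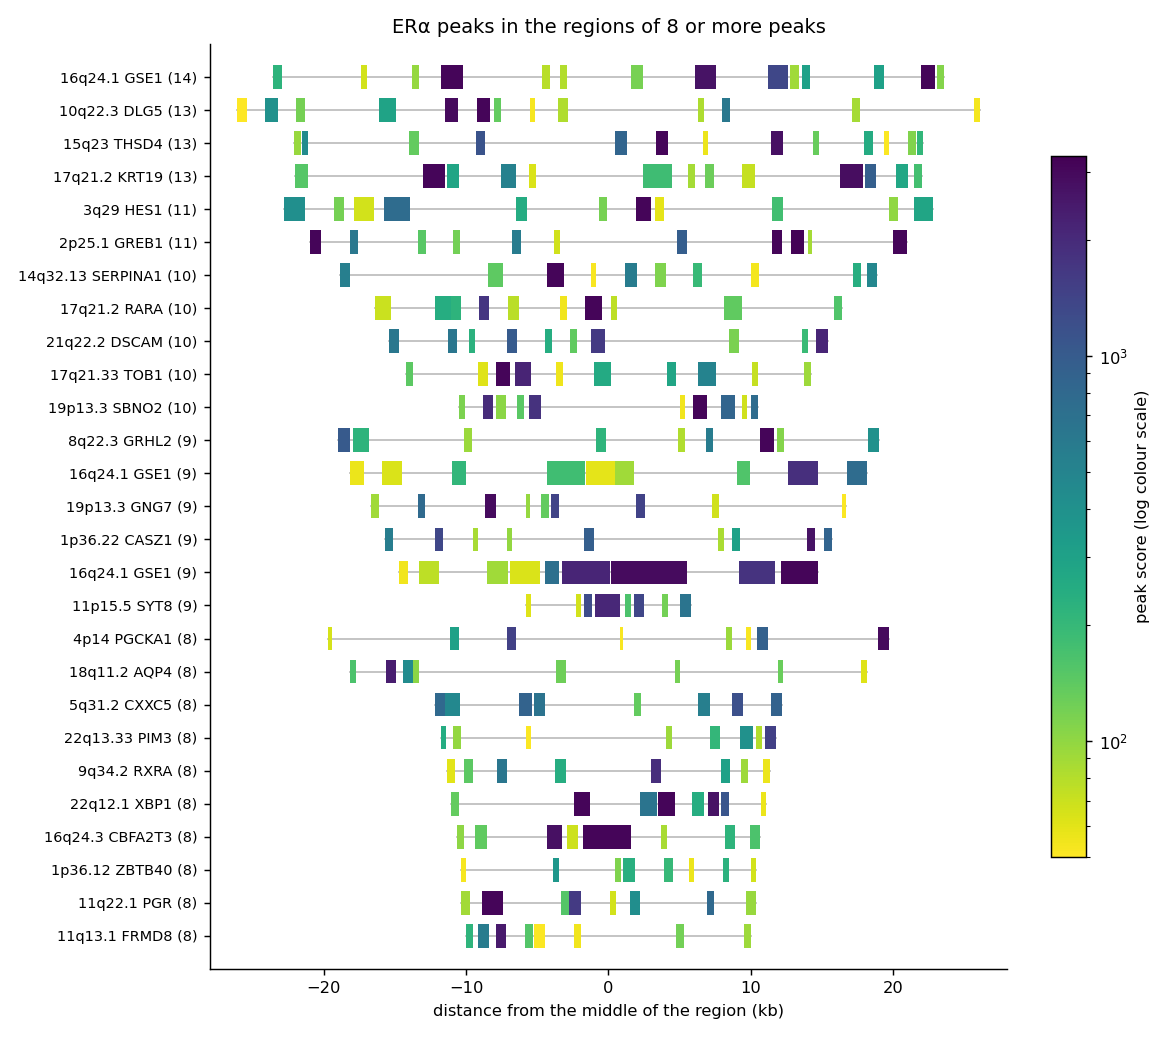
Each row is 1 of the 27 regions of 8 or more peaks, labelled by band, a gene of the locus and number of peaks. The x axis is the distance from the middle of the region in kb, blocks are peaks drawn to scale in width, and darker blocks have higher scores (log colour scale). Dark and pale blocks alternate within rows, and the region of 9 peaks at GSE1 with a 5327 bp peak is nearly filled.

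Region length grew with the number of peaks but varied widely at each number. The median length was 18841 bp (95% interval 17079 to 20662 bp), and the range ran from 6304 bp in 6q13 to 52192 bp at DLG5. The 58 regions of 5 peaks ran from 6304 to 25136 bp, so the longest of them exceeded the region of 10 peaks at SBNO2. The typical gap did not rise with size: the median gap per region was 2233 bp with 5 peaks (1571 to 2983 bp), 2168 bp with 6 or 7 (1629 to 2581 bp) and 1998 bp with 8 or more (1351 to 2329 bp). Peaks covered 22.7% of the summed region length. Of the 740 gaps inside regions, 242 (32.7%) were under 1 kb, 146 (19.7%) under 500 bp, and 25 were 9 kb or more. The shortest was 2 bp, at RARA.

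**Figure D3:**
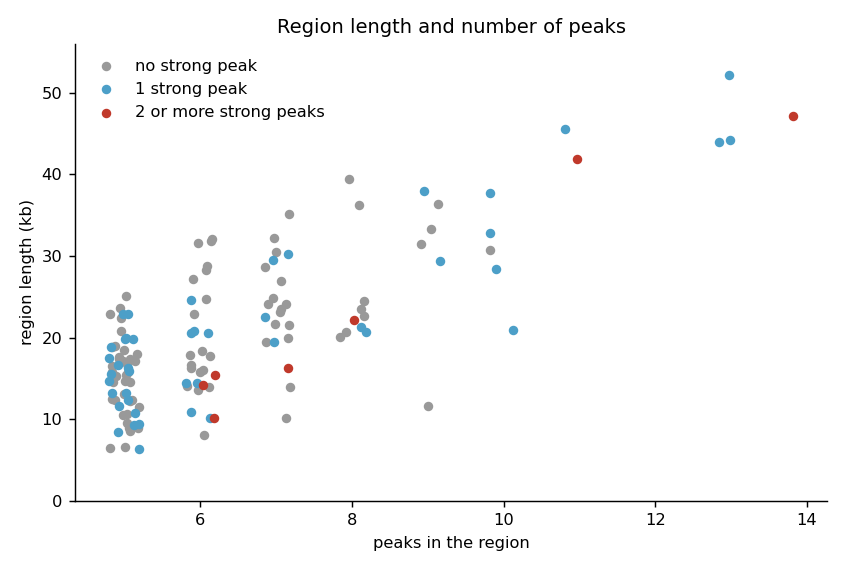
Length of each of the 136 regions in kb (y axis) against its number of peaks (x axis, points shifted sideways at random within each number for legibility). Grey points hold no strong peak, blue ones 1 and red ones 2 or more. Regions of 5 peaks range from 6304 to 25136 bp, and the longest region, of 13 peaks, measures 52192 bp.

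The rule put every region end more than 10000 bp from the next peak, so some separation is built in. The distances were not compared with those around other peaks. From a region end the next peak lay a median of 40948 bp away (34176 to 50352 bp). At 73 of 272 ends (26.8%) it lay within 20 kb, and at 81 ends (29.8%) beyond 100 kb. In 12 cases the neighbouring region of the same chromosome began within 100 kb. The closest pair was in 14q24.3, where regions of 5 peaks each lay 11641 bp apart.

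Spacing inside regions was irregular in most. The coefficient of variation of the distance between neighbouring centres had a median of 69.0% (66.5 to 72.4%). The lowest value, 6.52%, belonged to 5 peaks in 16q23.3 at chr16:83972855-83988757. Their gaps were 3037, 2831, 2684 and 3429 bp and their scores 62.16, 593.66, 3100, 55.40 and 51.10, so spacing was even while scores were not. Next came 5 peaks in 3q29 at chr3:195862340-195878149, with 20.7%. There the scores were alike and high, 593.61, 1294.13, 767.13, 1317.68 and 1265.85, and widths ran from 1143 to 2078 bp.

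Peaks in the middle of regions were not shown to be wider than those at the ends. The median width was 598.5 bp (95% interval 569 to 638 bp) for the 272 outermost peaks and 637.5 bp (609 to 679 bp) for the 604 interior ones. By place from the nearer end, the second peaks had a median of 620.5 bp (583 to 679 bp), the third 637 bp (593 to 691 bp) and those further in 684.5 bp (616 to 781 bp). These medians climb step by step, but the intervals overlap, and the innermost places exist only in regions of 7 or more peaks. Within regions, the median interior width exceeded the mean width of both outermost peaks in 76 of 136, and it was smaller in 60. The median of this difference was 19.5 bp, with an interval from -8 to 65 bp. It sets a median against a mean, and a very wide peak raises a mean more than a median. The difference may therefore understate the interior width.

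The widest peak itself stood in the interior in 100 of 136 regions, or 73.5% (Wilson 95% interval 65.5 to 80.2%), where 66.9% of places were interior on average. The interval includes that share. In the 27 regions of 8 or more the widest peak was interior in 25, or 92.6% (76.6 to 97.9%), where 78.5% of places were interior, and this interval includes it too. The exceptions were GREB1, whose widest peak of 943 bp came last and exceeded its neighbour of 939 bp by little, and PGCKA1 in 4p14. The interior excess was greatest in 1 region of 7 peaks. At NHERF1 in 17q25.1, which encodes a PDZ scaffold protein, the widths in order were 638, 687, 1732, 1739, 549, 2088 and 928 bp, with an interior median of 1732 bp and an outermost mean of 783 bp.

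Scores did not climb step by step towards the middle. By place from the nearer end the median was 182 (156 to 223) for the outermost peaks, 244 (187 to 303) for the second, 240 (167 to 326) for the third and 202 (137 to 291) for those further in, with overlapping intervals. The median score of all interior peaks was 234 (198 to 280), whose interval overlaps that of the outermost ones. Of the 62 strong peaks, 14 were outermost, or 5.15% of that group (3.09 to 8.45%), and 48 interior, or 7.95% (6.05 to 10.4%). The top-scoring peak stood at an end in 32 regions and inside in 104, or 76.5% (68.7 to 82.8%), an interval that lies above the interior share of 66.9%. In 6 regions the top score was a tie, and the first of the tied peaks was counted. The interior median exceeded the outermost mean in 70 of 136 regions. A very high score raises a mean more than a median, so this count leans against the interior. The widest peak was also the top-scoring one in 58 regions, or 42.6% (34.6 to 51.0%), where 16.5% would be its share of places. That 16.5% takes width and score as unrelated. They rose together over all autosomal peaks (Spearman correlation 0.628) and over the clustered ones (0.618). The excess over 16.5% therefore cannot be read as a trait of clusters.

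**Figure D4:**
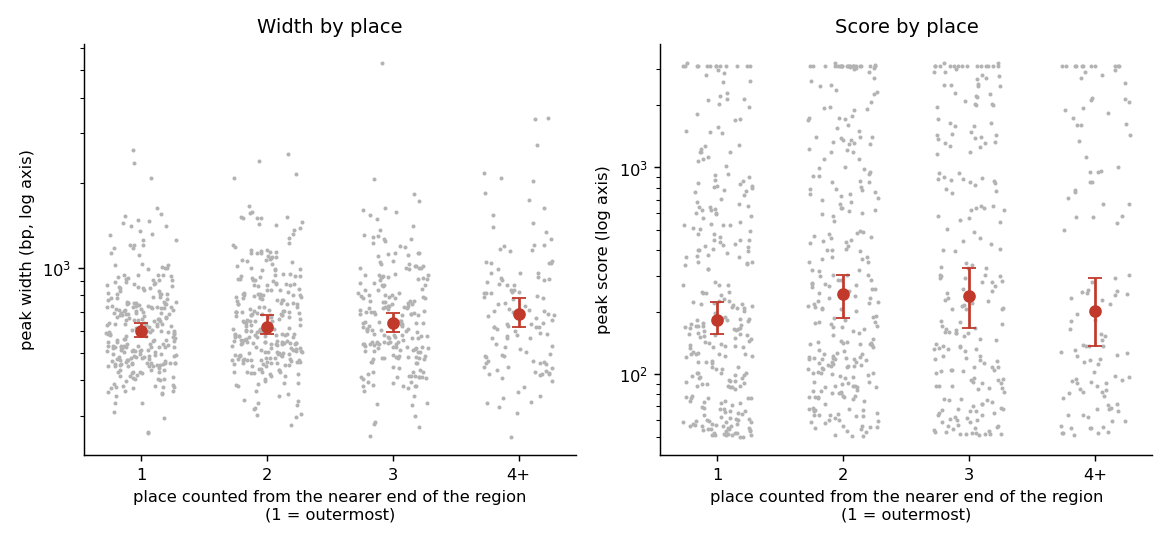
Width in bp (left, log axis) and score (right, log axis) of the 876 clustered peaks by place counted from the nearer end of their region, 1 being outermost. Grey points are peaks, red points medians with 95% intervals. Median widths run from 598.5 bp outermost to 684.5 bp at the innermost places, with overlapping intervals, and points at 3100 form a line at the top of the right panel.

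Clustered peaks more often had high scores than the rest of the list. At or above the list median stood 561 of the 876, or 64.0% (Wilson 95% interval 60.8 to 67.2%), against 49.8% of all autosomal peaks, 58.0% (56.5 to 59.5%) of peaks in regions of 2 to 4 and 43.1% (42.0 to 44.3%) of single peaks. Strong peaks were also more frequent: 62 of 876, or 7.08% (5.56 to 8.97%), against 2.14% of all autosomal peaks, 3.47% (2.96 to 4.06%) in regions of 2 to 4 and 0.741% (0.567 to 0.967%) of single peaks. These intervals treat peaks as independent. Beyond 5 peaks the share did not climb: it was 64.7% (60.8 to 68.3%) in regions of 5 to 7 and 62.5% (56.5 to 68.2%) in regions of 8 or more.

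The median over regions was 2512 for the top score, 852 for the second and 61.3 for the lowest. A strong peak was present in 52 regions, or 38.2% (30.5 to 46.6%): 45 had 1, 5 had 2, and 1 each had 3 and 4. Without the top peak of each region, the other 740 peaks had a median score of 159 (140 to 175), beside 98.6 (94.2 to 103) for the 2531 peaks left in regions of 2 to 4 and 106 (103 to 109) for single peaks. This removal takes 1 of 2 to 4 peaks from the small regions, 1 of 5 to 14 from the large ones and none from single peaks, so it lowers the small regions most by construction (from 166 to 98.6, against 215 to 159) and the medians are not comparable. Every peak was at or above the list median in 11 regions, among them SERPINA6, CXXC5, the hair keratin region and one by SMAD7. In 1 region, in 14q24.1 at chr14:67907199-67928033, all were below it, with scores of 92.92, 119.70, 66.82, 106.11 and 52.25.

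Clustered peaks were also wider, within score classes below 3100 too. Their median width was 627.5 bp (603 to 650 bp), against 546 bp (540 to 554 bp) in regions of 2 to 4 and 474 bp (470 to 479 bp) for single peaks. Of the 876, 417 or 47.6% (44.3 to 50.9%) reached the upper quartile of width in the list, 644 bp, against 25.3% of all autosomal peaks. Among peaks scoring below 70.5, the lower quartile of the list, the median width was 456 bp (430 to 474 bp) in the clusters and 394 bp (389 to 399 bp) for single peaks. From 128 to 347 it was 589 bp (564 to 628 bp) and 515 bp (510 to 523 bp), and from 347 up to 3100 it was 744 bp (709 to 776 bp) and 636 bp (626 to 647 bp). Among strong peaks the order was not seen: 62 clustered ones had a median of 971.5 bp (921 to 1167 bp) and 53 single ones 1067 bp (976 to 1172 bp). Scores were not matched within a class, and the class from 347 up to 3100 is broad. Since width rises with score, unlike scores within a class can add to these differences in width. Wide peaks leave shorter gaps between edges, so width is not wholly independent of the rule.

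**Figure D5:**
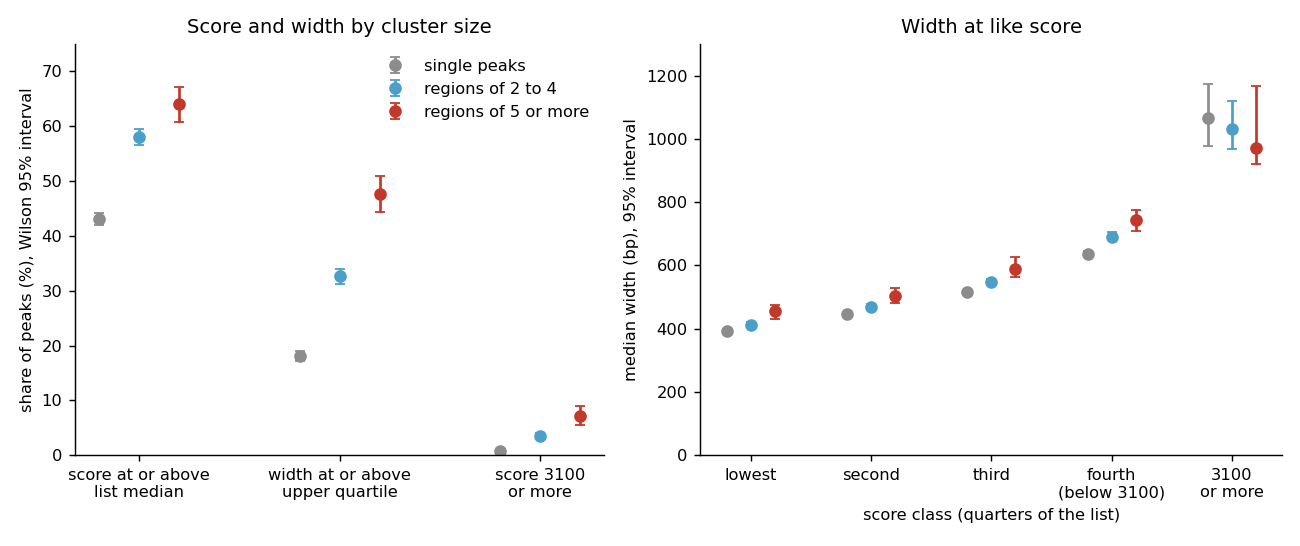
Left: percent of peaks past 3 marks of score or width, for single peaks (grey), regions of 2 to 4 (blue) and regions of 5 or more (red), with Wilson 95% intervals. Right: median width in bp by score class, with 95% intervals. Red points lie above grey ones in each class below 3100, with blue ones between them, and the intervals overlap among strong peaks.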

How the data were processed

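The source is 1 peak list, of 12688 entries, for the ERα and input pair. Peak names carry the MACS prefix, per the file. The submitters' processing notes name CASAVA 1.8, Bowtie 0.12.9, HOMER and build hg19 without roles; for the caller's version, threshold and treatment of repeated reads, the sources used here say nothing. The score of each peak is deposited by the authors and its scale is not stated. Positions are deposited by the authors and were printed counted from 1. No peak of chromosomes 1 to 22 ended past the hg19 chromosome ends. Depth is unknown, so no level or detection limit is given.

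Chaining used a distance of 10000 bp between facing edges and a minimum of 5 peaks. Shares carry Wilson 95% intervals and medians order-statistic 95% intervals, which cover counting error only. Members and lists were chosen with earlier results of these data known. Regions named are those of 8 or more peaks, the 5 longest, the 5 with the highest median score and the 5 with most strong peaks (ties kept), plus those at the thresholds; other regions were named after their values were seen. Bands came from circlize 0.4.16 and lengths from GenomeInfoDb 1.38.1. Chaining was tested on simulated data. Promoters came from RefSeq. Alternatives were other distances, sizes, centres, scores and merging. Computation ran in R 4.3.3 and Python 3.11.15, with matplotlib 3.10.9, SciPy 1.17.1, pandas 2.3.3 and NumPy 2.4.6.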

Additional observations from a re-analysis of the deposited data

Results flagged for a closer look

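Outside chromosomes 1 to 22, which the comparisons use, chromosome X held 5 further regions of 5 or more peaks with 35 peaks in all. The largest had 15 peaks in 44844 bp with a spacing variation of 10.7%, and the other 4 had 5 peaks each. Gaps in the largest ran only from 1074 to 2029 bp, and its median width was 1311 bp. Whether such evenly spaced peaks lie on a repeated sequence was not tested, so they may not be separate sites. None of the 5 held a strong peak. The 12 peaks on chromosome Y and the 29 on alternative haplotypes formed 0 such regions.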

How the results depend on the processing

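The number of regions was 136 and fell to 64 at a 5 kb distance, 78 with at least 6 peaks and 40 when only peaks at or above the list median were chained. It fell to 93 after merging peaks within 500 bp, and it rose to 250 at 20 kb and 307 with at least 4 peaks. The clustered peaks, 876, became 377, 1692 and 1560 at 5 kb, 20 kb and 4 peaks, 224 with peaks at or above the median only (100% of them at or above it, by construction) and 568 after merging peaks within 500 bp. The median length of 18841 bp became 11602 bp at 5 kb, 32202 bp at 20 kb, 14054 bp with at least 4 peaks, 23061 bp with at least 6 and 20990 bp after merging. The interior share of widest peaks, 73.5%, became 62.2% with at least 4 peaks, where 57.5% of places were interior, and 80.8% with at least 6, where 72% were. The width difference of 19.5 bp ran from 6.0 to 43.8 bp, and its interval lay above 0 only with at least 4 peaks (5.0 to 50.5 bp). Counts under the other planned settings stayed within 1.5 times the main count, and the other values stayed inside the 95% interval of the main value. With centres in place of edges, a choice made after seeing the data for this value, the width of clustered peaks scoring from 128 to 347 was 594.5 bp against 589 bp. No paired analysis was possible because the series has only 1 ERα library and 1 input library. No hg19 sequence or annotation was used, and unknown depth limits which weak peaks could complete a region.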
